A study of Mus musculus with 6 samples.

Results

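Elastic fibre and microfibril genes were examined in mouse cardiac fibroblasts with and without Cre-mediated deletion of Tet3, which encodes a dioxygenase that oxidizes methylated cytosine in DNA. The members were 10 genes chosen by symbol, namely Eln, Fbn1, Fbn2, Mfap2, Mfap4, Mfap5, Fbln1, Fbln2, Fbln5 and Efemp2, and all 10 were found among the 22063 genes of the deposited table. Primary cardiac fibroblasts were isolated from the hearts of mice with floxed Tet3 alleles (Tet3 f/f) and transduced with a GFP or a Cre adenovirus. The names of both adenoviruses among the study's reagents include CMV and EGFP, and only that of the Cre virus adds Cre. The 3 GFP libraries are labelled Control and the 3 CRE libraries Tet3 knockout, and all 6 came from cells treated with TGF-β, so no untreated cells were compared. Cre was delivered to the whole culture with no cell type-specific promoter named, and the age of the mice and the share of transduced cells are not given in the sources used here. The study calls its replicates biological, but neither it nor the labels say whether the libraries of a group came from separate animals or cultures, so p-values measure the spread between these libraries.

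Elastic fibres give arteries, lungs, valves and skin their recoil. Fibrillins polymerize into microfibrils, and small microfibril-associated glycoproteins bind along them. Elastin is laid down on this scaffold as a soluble precursor, guided by short fibulins, and is then crosslinked by lysyl oxidases. Microfibrils also hold latent TGF-β through the latent TGF-β binding proteins. In the heart, fibroblasts make much of this matrix, and its make-up is remodelled in fibrosis.

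All 10 members were lower in CRE than in GFP cells, and none was higher (edgeR's two-sided quasi-likelihood test, threshold of 0.05 on the adjusted p). Elastin fell the furthest, to 20.4% of its GFP level, and Fbln5 the least, to 84.3%. Fbn1, Mfap2 and Mfap4, which encode scaffold components, each stood near 50% of the GFP level, at 51.2%, 49.6% and 50.9%. Mfap5, which also encodes a microfibril-associated protein, stood at 77.8%, next to the short fibulin Efemp2 at 79.1%. The median log2 fold change of the 10 genes was -0.88, against 0.01 over all 12862 tested genes. Of all tested genes, 25.7% were called lower and 25.5% higher in CRE cells. The 10 of 10 members called lower are read against that background of 25.7%. The members were chosen with earlier results of these data known, and Fbn2 passed the filter on low counts through the GFP libraries alone. The count of 10 of 10 is therefore a description and not independent support. In CPM, which are counts relative to a library's total after TMM scaling, every CRE library lay below every GFP library for 10 of 10 members, as it did for 29.6% of all tested genes.

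The libraries held between 17002126 and 20343590 counted reads. Tet3 itself was counted 965 to 1044 times in GFP and 637 to 649 times in CRE libraries, and its CPM fell to 60.8% of the GFP level (log2 fold change -0.72, SE 0.08, adjusted p = 5.36e-05). Reads outside the deleted part of the gene were counted too, so this count is only a partial check of the deletion. Scaling factors were between 0.944 and 0.947 in GFP and between 1.05 and 1.06 in CRE libraries. With library size alone in their place, the median of all genes moved up by 0.16 on the log2 scale and 2083 genes were lower and 5529 higher, in place of 3306 and 3277. Of the 10 members, 9 were then still called lower, the exception being Fbln5.

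Because TET3 acts on methylated CpG dinucleotides, the sequence before the start of members with a window in the RefSeq promoter table (GRCm38.p6) is shown, with each CpG in capitals. The table held windows for 6 of the 10 members, from 250 bases before to 50 after the start. Those for Fbln1, Fbln5 and Efemp2 overlap no annotated exon in their first 250 bases, and those bases are printed 5′ to 3′ on the gene's strand. No promoter window was used for Eln, Fbn2, Mfap4 and Mfap5. Where a gene had several windows, the one whose start lies nearest to its GENCODE start was taken. The printed 250 bases are chr15:85205699-85205948 on the plus strand for Fbln1, chr12:101819120-101819369 on the minus strand for Fbln5 and chr19:5473696-5473945 on the plus strand for Efemp2.
Fbln1: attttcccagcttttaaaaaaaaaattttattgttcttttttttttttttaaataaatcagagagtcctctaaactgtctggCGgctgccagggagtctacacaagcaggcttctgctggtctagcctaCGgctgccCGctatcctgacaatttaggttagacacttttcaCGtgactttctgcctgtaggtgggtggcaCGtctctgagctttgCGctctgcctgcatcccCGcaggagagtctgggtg
Fbln5: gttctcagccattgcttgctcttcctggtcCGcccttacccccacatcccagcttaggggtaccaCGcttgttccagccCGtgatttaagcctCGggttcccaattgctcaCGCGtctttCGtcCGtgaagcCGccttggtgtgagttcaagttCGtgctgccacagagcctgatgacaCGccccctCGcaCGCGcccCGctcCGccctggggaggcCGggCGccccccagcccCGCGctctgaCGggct
Efemp2: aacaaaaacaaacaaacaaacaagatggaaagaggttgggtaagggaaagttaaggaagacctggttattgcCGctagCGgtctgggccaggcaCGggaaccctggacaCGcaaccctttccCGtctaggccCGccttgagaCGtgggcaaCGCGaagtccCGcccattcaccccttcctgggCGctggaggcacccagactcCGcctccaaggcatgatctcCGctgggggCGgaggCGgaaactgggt

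The 3 upstream sequences held 7 CpGs for Fbln1, 21 for Fbln5 and 15 for Efemp2. Over the whole 300-base windows the 6 members had 12 CpGs for Fbln1, 24 for Fbln5, 16 for Efemp2, 14 for Fbn1, 22 for Mfap2 and 10 for Fbln2, and the median over 32851 mouse windows was 7. In the windows taken, all 6 members were above the median in CpG number. The window of Fbn1 starts 1555 bases from the GENCODE start of the gene. Methylation was not measured in these libraries. Letters of 5 motifs were searched on both strands of the 300-base windows. GGGCGG, the GC box bound by Sp1, was found in the windows of Fbn1, Mfap2, Fbln2, Fbln5 and Efemp2 but not Fbln1, and in 35.7% of all windows. CAGACA, which holds the CAGA letters of the SMAD binding element, was found in Fbln1 alone among the 6 and in 21.0% of all windows. The TATA box, searched as TATAAA, was in none of the 6 and in 13.6% of all windows. The AP-1 site, searched as TGANTCA, was in none of the 6 and in 7.81% of all windows. The TEAD site, searched as GGAATG, was in none of the 6 and in 14.7% of all windows. GGGCGG holds a CpG, so these counts are not independent of CpG number.

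Elastin, the core protein that gives the fibre its recoil, is encoded by Eln on chromosome 5 (GRCm38, chr5:134702593-134747323, minus strand). Its CPM was 477, 323 and 397 in GFP and 92.6, 68.7 and 82.1 in CRE libraries. The groups were far apart, although the GFP libraries differed among themselves more than for most members. The mean was 399 ± 77.0 CPM (SD, n = 3) in GFP and 81.2 ± 12.0 in CRE cells. The log2 fold change was -2.30 (SE 0.14, 95% confidence interval -2.61 to -1.98), or 4.91-fold lower, with an adjusted p of 1.06e-06. Of the 12862 tested genes, 54 had a lower log2 fold change than Eln.

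The fibrillins form the microfibril itself. Fbn1 (chr2:125300594-125507993, minus strand) encodes fibrillin-1, which is mutated in Marfan syndrome. Its CPM was 4199, 3790.4 and 3755 in GFP and 1956, 1948 and 2107 in CRE libraries. Both groups were tight relative to the gap between them, and Fbn1 fell from 3915 ± 247 to 2004 ± 89.5 CPM (SD, n = 3; log2 fold change -0.97, SE 0.05, adjusted p = 5.93e-07). Fbn2, on chromosome 18, encodes fibrillin-2, best known from developing tissue. It was counted 25, 29 and 22 times in GFP and 9, 16 and 9 times in CRE libraries. Fbn2 was thus close to the limit of what this depth can count, with a log2 fold change of -1.22 whose 95% confidence interval ran from -1.97 to -0.48 (SE 0.34, adjusted p = 0.0116). Fbn2 passed the filter on low counts through the GFP libraries alone, where it is high, so its call adds no support to the count of 10, and the other 9 members passed through both groups. The interval of Fbn2 holds the value of Fbn1, so their different point estimates do not order the fibrillins.

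Among the microfibril-associated proteins, Mfap2 and Mfap4 fell by about as much as Fbn1, and Mfap5 fell less. Mfap2 (chr4:141010418-141015984, plus strand) and Mfap5 (chr6:122505845-122529290, plus strand) encode the related glycoproteins MAGP-1 and MAGP-2, which bind fibrillin. Mfap2 was counted 124, 220 and 227 times in GFP and 95, 104 and 94 times in CRE libraries. The first GFP library lay well below the other two, although still above all CRE libraries in CPM, and the log2 fold change was -1.02 (SE 0.18, adjusted p = 0.000807). Mfap5 had a CPM of 298, 272 and 293 in GFP and of 237, 205 and 230.3 in CRE libraries. The groups of Mfap5 did not overlap, and its log2 fold change was -0.36 (SE 0.06, 95% confidence interval -0.50 to -0.23, adjusted p = 0.000674). Mfap4 (chr11:61485431-61488900, plus strand) encodes a fibrinogen-related protein that binds elastin and fibrillin. Its CPM was 469.9, 481 and 460.1 in GFP and 233, 236 and 249 in CRE libraries. Mfap4 had the lowest adjusted p of the 10 members, with a log2 fold change of -0.97 (SE 0.04, adjusted p = 2.57e-07). The 95% confidence intervals of Mfap4 and Mfap5 do not overlap, the first running from -1.07 to -0.88.

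**Figure D1:**
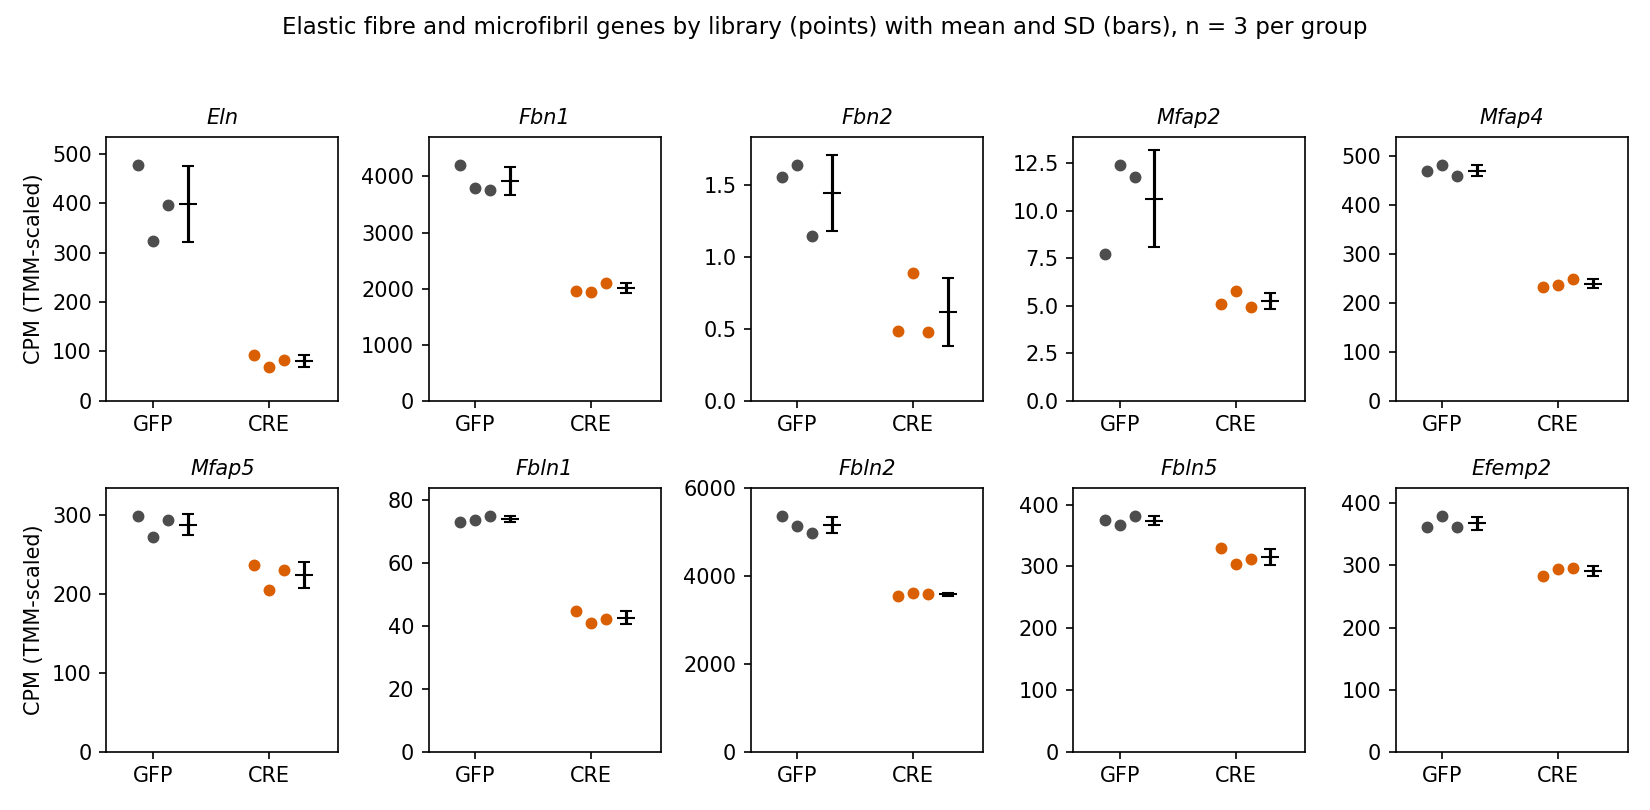
Each panel plots 1 gene, with TMM-scaled CPM on a vertical axis that starts at 0 and the GFP and CRE groups on the horizontal axis. Points are libraries and black bars give the mean and SD (n = 3). In all 10 panels the 3 CRE points lie below the 3 GFP points, with the widest relative gap for Eln (399 against 81.2 CPM) and the narrowest relative gap for Fbln5 (374 against 315 CPM).

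The fibulins are calcium-binding glycoproteins that bridge elastin, microfibrils and cells. Fbln1 (chr15:85205949-85286535, plus strand) encodes fibulin-1, which binds fibronectin and sits within the elastin core. Its CPM was 73.1, 73.8 and 74.9 in GFP and 44.9, 40.9 and 42.1 in CRE libraries. The GFP libraries spanned less than 2 CPM, and Fbln1 fell to 57.7% of the GFP level (log2 fold change -0.79, SE 0.05, adjusted p = 1.48e-06). Fbln2 (chr6:91212455-91272540, plus strand) encodes fibulin-2, which binds fibrillin and lies at the border between microfibrils and elastin. Its CPM was 5365, 5145 and 4989 in GFP and 3539.6, 3627 and 3588 in CRE libraries. The spread within each group was small beside the gap, and its log2 fold change was -0.53 (SE 0.04, adjusted p = 3.69e-06).

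The short fibulins deliver elastin and its crosslinking enzymes to the microfibril. Fbln5 (chr12:101746565-101819055, minus strand) encodes fibulin-5, which tethers elastin and Loxl1 to microfibrils and cells. Its CPM was 375, 367 and 381 in GFP and 329, 304 and 313 in CRE libraries. Fbln5 had the smallest change of the 10 members, with a log2 fold change of -0.25 (SE 0.05, 95% confidence interval -0.35 to -0.15, adjusted p = 0.00114). Efemp2 (chr19:5473954-5482517, plus strand) encodes fibulin-4, which brings lysyl oxidase to elastin. Its CPM was 362.1, 379 and 362 in GFP and 282, 294 and 296 in CRE libraries, and the log2 fold change was -0.34 (SE 0.04, adjusted p = 0.00011). The groups of both genes were apart in CPM, but the result for Fbln5 rested on the scaling. With library size alone its log2 fold change was -0.08 (adjusted p = 0.121, edgeR), and on the log2(FPKM + 1) scale it was -0.07 (adjusted p = 0.178, limma). Under library size alone the log2 fold changes of Efemp2 and Mfap5 shrank to -0.18 and -0.20 but kept their calls.

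Annotated exons of Eln, Fbn1, Fbn2, Mfap4 and Efemp2 overlap exons of a gene on the other strand (Gm30003, Gm9913, Gm26507, Mapk7 and Mus81), and whether counting used the strand is not given in the sources used here. If it did not, reads in the overlapping stretches of those 5 members could belong to either gene, and the size of the overlaps and the partners' counts were not examined.

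Levels of different genes were compared per length, on the deposited FPKM (fragments scaled by transcript length and library size). In GFP cells the order from highest to lowest was Fbln2 at 1059 FPKM, Fbn1 at 373, Mfap4 at 260.1, Efemp2 at 218, Mfap5 at 200.1, Fbln5 at 135, Eln at 106, Fbln1 at 25.2, Mfap2 at 9.40 and Fbn2 at 0.124. In CRE cells it was Fbln2 at 819 FPKM, Fbn1 at 214, Efemp2 at 193, Mfap5 at 171, Mfap4 at 148, Fbln5 at 128, Eln at 24.5, Fbln1 at 15.7, Mfap2 at 5.20 and Fbn2 at 0.059. No pair of neighbours in either order had overlapping ranges over the 3 libraries. The order differed only in that Mfap4 moved from position 3 to position 5, below Efemp2 and Mfap5. In FPKM, every CRE library lay below every GFP library for 9 of 10 members, as it did for 17.3% of all tested genes, the exception being Fbln5, at 132 to 138 FPKM in GFP and 124 to 133 in CRE libraries.

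The members' share of all counts was 1.05% ± 0.045 (SD, n = 3) in GFP and 0.718% ± 0.0125 in CRE libraries, or 68.6% of the GFP share. Their summed FPKM was 2386 ± 78.5 in GFP and 1718 ± 19.5 in CRE libraries. Both differences separated the groups, and both had an exact two-sided permutation p of 0.1, the smallest that 3 against 3 libraries allow. Within the summed FPKM, Eln held 4.45% ± 0.732 in GFP and 1.42% ± 0.232 in CRE libraries. Fbn1 held 15.6% and then 12.5%, and Mfap4 10.9% and then 8.59%. Shares were larger in CRE libraries for Fbln2 (44.4% and 47.7%), Efemp2 (9.13% and 11.2%), Mfap5 (8.39% and 9.96%) and Fbln5 (5.65% and 7.45%). Per length, the elastic fibre transcripts of CRE cells were thus made up less of Eln, Fbn1 and Mfap4 and more of Fbln2, Efemp2, Mfap5 and Fbln5, with no overlap between groups for any of these 7 shares. The share of Fbln1, also a fibulin, was smaller in CRE libraries (1.06% and 0.915%), again with no overlap. The shares of a library sum to the whole, so smaller shares of some members force larger shares of others. Fbln2, Efemp2, Mfap5 and Fbln5 also had lower mean FPKM in CRE than in GFP cells. The separations of the shares are thus not separate results, and no background over all tested genes was computed for them.

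**Figure D2:**
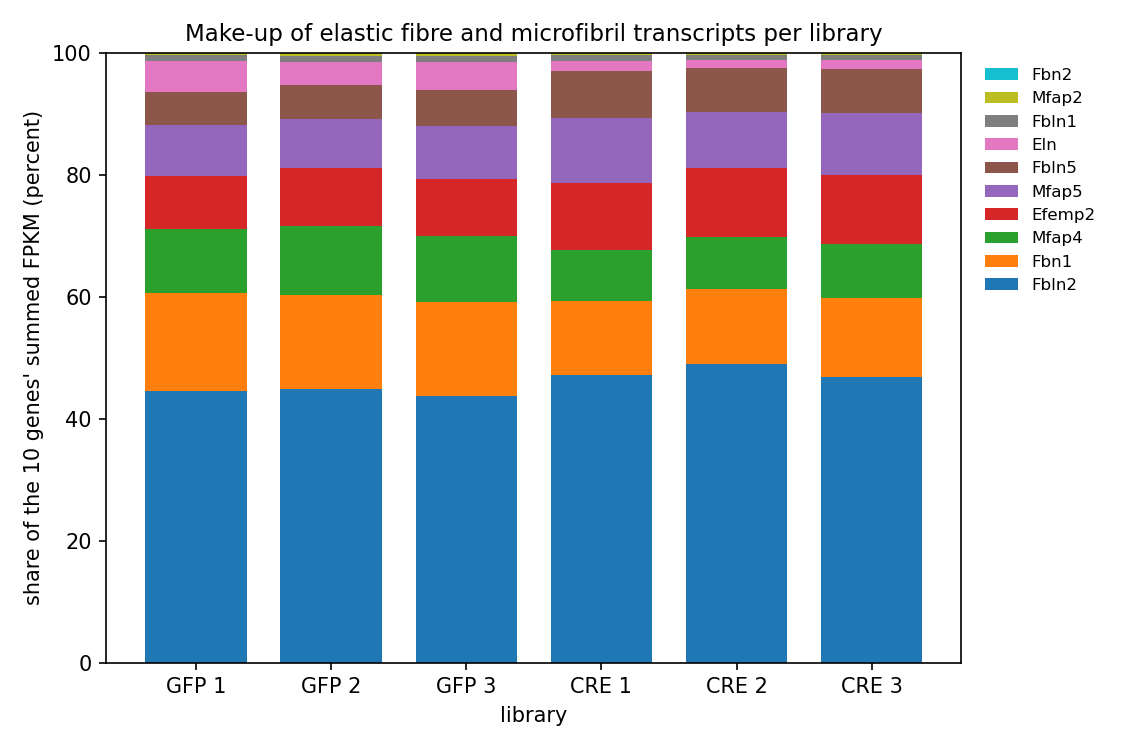
Stacked bars give, for each of the 6 libraries on the horizontal axis, the share of the 10 members' summed FPKM (percent, from 0 to 100) held by each gene. Eln narrows from 4.45% on average in GFP to 1.42% in CRE libraries, and Fbln2 is the widest band in every bar, at 44.4% and 47.7% on average.

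Ratios of 2 members within a library need no scaling between libraries. Elastin counts per fibrillin-1 count were 0.114, 0.0851 and 0.106 in GFP and 0.0474, 0.0353 and 0.0390 in CRE libraries. Every CRE ratio was below every GFP ratio, with a mean difference of -1.32 on the log2 scale (exact two-sided permutation p = 0.1, the smallest possible, and 0.4 when adjusted over 4 pairs). Eln thus stood lower relative to Fbn1 in all 3 CRE libraries, in a design too small to reach 0.05. The Mfap5 to Mfap2 ratio was 28.5 ± 8.95 in GFP and 42.8 ± 6.21 in CRE libraries, with overlapping groups (exact p = 0.2). The Fbln5 to Efemp2 ratio was 1.02 ± 0.0452 and 1.09 ± 0.0710 (n = 3, exact p = 0.3), and the Fbn2 to Fbn1 ratio differed by -0.31 on the log2 scale (exact p = 0.4). Both pairs overlapped, and after adjustment p was 0.4 for all 4 pairs.

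**Figure D3:**
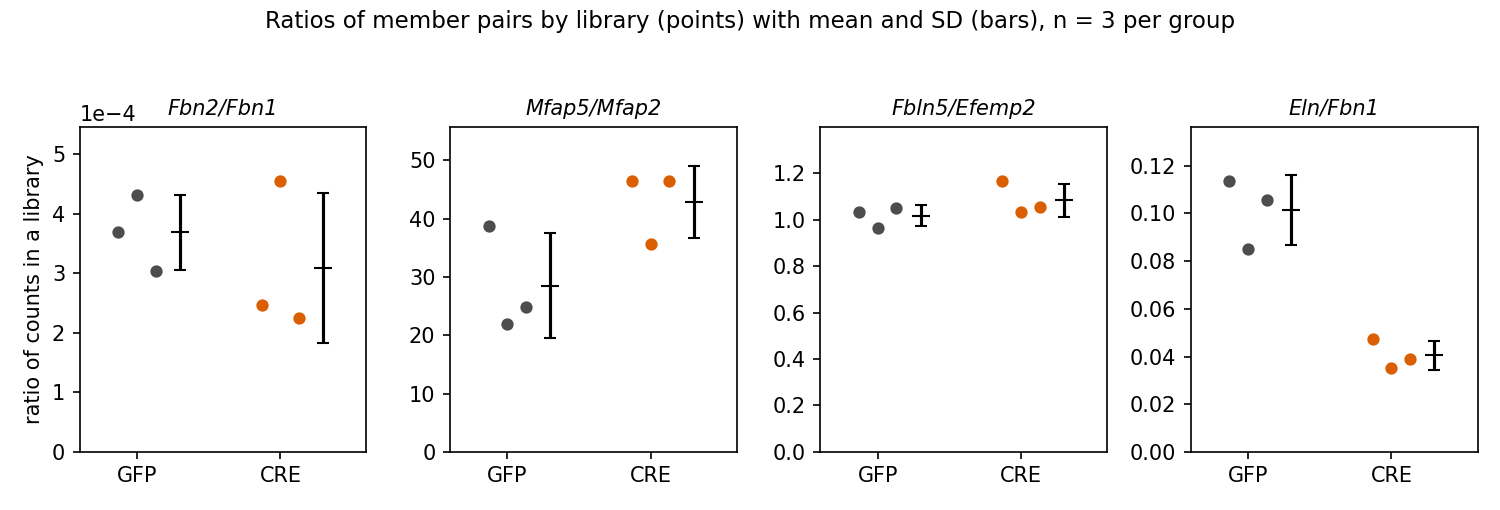
Each panel plots the ratio of the counts of 2 members in each library (points) with the mean and SD (n = 3), for GFP and CRE groups, on a vertical axis that starts at 0. The Eln to Fbn1 ratios are 0.0851 to 0.114 in GFP and 0.0353 to 0.0474 in CRE libraries, and the other 3 pairs overlap between groups.

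Genes that assemble, crosslink, bind or degrade elastic fibres were taken from a list of 50. The table held 49 of them, and 46 were tested. Of the 46, 27 were lower, 6 were higher and 13 did not pass, with a median log2 fold change of -0.38 against 0.01 for all tested genes. The counts in this list, in its sublists and in the marker lists are to be read beside the 25.7% of all tested genes called lower and the 25.5% called higher. Of the genes called lower, Mmrn1 and Ctss passed the filter through the GFP libraries alone and add no support. The 10 members, of which all were lower, are not part of these 46.

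The lysyl oxidases oxidize lysine residues in elastin and collagen so that the chains crosslink. Of the 5 family members, 3 fell, 1 rose and 1 did not pass, so the number that rose is near the background of 25.5%. Lox, the founding member and the partner of fibulin-4, had a CPM of 10325, 8920.4 and 9489 in GFP and of 6142, 5557 and 6209 in CRE libraries (log2 fold change -0.68, adjusted p = 1.01e-05). Loxl3 and Loxl2 fell by 0.42 and 0.37 on the log2 scale (adjusted p = 0.000165 and 4.36e-05), and with library size alone by 0.26 and 0.21 (adjusted p = 0.00289 and 0.00158). Loxl4 rose, from 42.9 to 45.7 CPM in GFP libraries to 68.2 to 92.6 in CRE libraries (log2 fold change 0.85, adjusted p = 5.08e-05). Loxl1, the partner of fibulin-5, had a log2 fold change of -0.02 (95% confidence interval -0.11 to 0.08, adjusted p = 0.793), and with library size alone it was 0.15 and passed the test as higher (adjusted p = 0.0168), as it did on log2(FPKM + 1) (0.15, adjusted p = 0.0261).

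Latent TGF-β binding proteins are relatives of the fibrillins, and 3 of the 4 fell. Ltbp4, which also binds fibulin-5 in elastic fibre assembly, had a CPM of 61.1, 51.3 and 48.0 in GFP and of 16.3, 16.1 and 13.9 in CRE libraries. It fell to 28.9% of the GFP level (log2 fold change -1.79, SE 0.10, adjusted p = 6.29e-07). Ltbp2 fell by 0.59 (adjusted p = 9.22e-06) and Ltbp3 by 0.15 on the log2 scale (adjusted p = 0.0131), while Ltbp1 stood at -0.05 (adjusted p = 0.577). The values of Ltbp3 and Ltbp1 changed sign with library size alone, to 0.02 and 0.12, and without CRE replicate 1 Ltbp3 was not called (adjusted p = 0.054).

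Of the 4 tested EMILINs and multimerins, matrix glycoproteins that share an EMI domain, 2 were lower and 1 higher. Mmrn1 had the lowest value, -2.38 (SE 0.37, adjusted p = 0.00042), with 19 to 21 counts in GFP and 3 to 5 in CRE libraries, and Emilin2 the highest, 0.31 (adjusted p = 0.0489). Mmrn1 passed the filter on low counts through the GFP libraries alone, and on log2(FPKM + 1) its value was -0.24. The call of Emilin2 was lost under several alternatives, with an adjusted p of 0.051 with size factors by RLE and of 0.444 on log2(FPKM + 1), and when GFP replicate 1 or 3 or CRE replicate 2 or 3 was left out (0.22 to 0.32, adjusted p = 0.0895 to 0.170). Among 4 fibulin relatives that are not members, Hmcn1 was lower, at -1.25 (adjusted p = 0.000154), and Hmcn2 higher, at 1.005 (adjusted p = 0.00553), both hemicentins. On log2(FPKM + 1), where its values lie far below the added 1, Hmcn2 was not called (0.11, adjusted p = 0.146). Efemp1, encoding fibulin-3, stood at 0.19 (adjusted p = 0.0757).

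ADAMTS and ADAMTS-like proteins bind fibrillin and affect microfibril formation. Of 7 tested, 5 were lower and none was higher, from -1.43 for Adamtsl4 to -0.47 for Adamts6 (adjusted p = 3.09e-05 and 0.000157). Of 12 assembly partners and chaperones, 7 were lower and 3 higher, and the number higher is near the background of 25.5%. The lowest was Vcan, encoding the proteoglycan versican, at -1.15 (adjusted p = 5.25e-06), and the highest Itga5, encoding the fibronectin receptor subunit integrin α5, at 0.74 (adjusted p = 6.89e-06). Of 7 elastin-degrading enzymes, 6 were lower and none higher, from Mmp12, macrophage elastase, at -1.78 (adjusted p = 3.12e-06) to Mmp14 at -0.29 (adjusted p = 0.00137). The call of Mmp14 was lost with library size alone (-0.13, adjusted p = 0.0585) and on log2(FPKM + 1) (-0.14, adjusted p = 0.0818). None of the 3 genes of the elastin receptor complex passed in either direction (edgeR), and their log2 fold changes lay between -0.15 and 0.17 (smallest adjusted p = 0.0569).

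**Figure D4:**
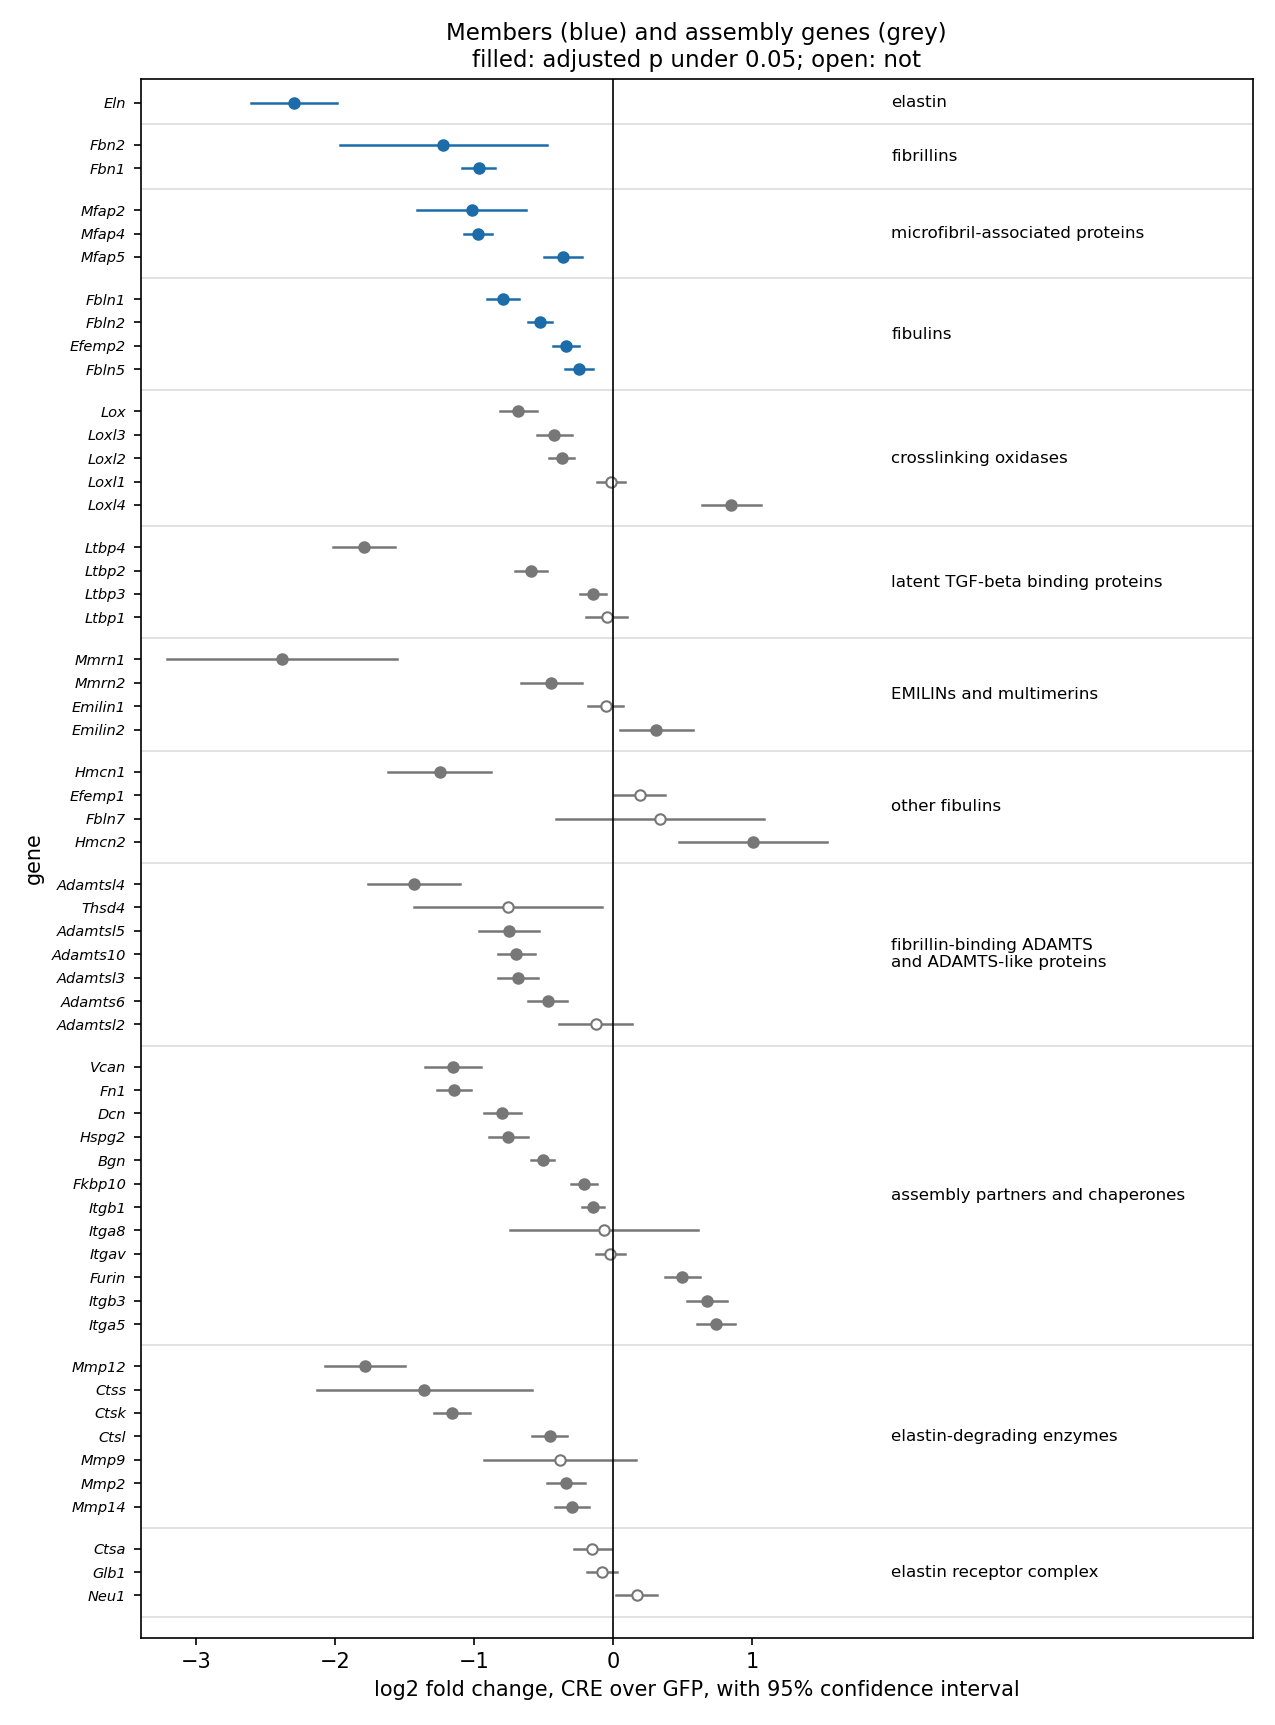
The horizontal axis gives the log2 fold change, CRE over GFP, with its 95% confidence interval, and each row is 1 gene, grouped by role. Blue points are the 10 members, all left of 0 between -2.30 for Eln and -0.25 for Fbln5, and grey points the 46 other tested genes, with open symbols where the adjusted p was not under 0.05. Loxl4 (0.85), Hmcn2 (1.005) and Itga5 (0.74) stand to the right.

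Cell type markers were read beside these results, since elastin and several microfibril genes are also made by smooth muscle and endothelial cells. In bulk RNA, fewer cells of a type and less RNA per cell cannot be told apart. Fibroblast markers summed to 25535 to 26806 CPM in GFP and 15601 to 16885 in CRE libraries, and 5 of 6 were lower (Thy1 at -0.10, adjusted p = 0.281). The lowest was Tcf21, a transcription factor of resident fibroblasts, at -1.80 (adjusted p = 4.21e-07), and the highest called was Ddr2 at -0.49 (adjusted p = 1.14e-05). Col1a1 and Col1a2 made up most of these sums, at means of 13729 and 11568 CPM in GFP and 8248 and 7391 in CRE cells. Tcf21 and Thy1 had means of 36.1 and 26.4 CPM in GFP cells. Most fibroblast markers were thus lower together with the members, but their levels differed widely.

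Of 7 smooth muscle markers, 6 were lower, and their sum was 2069 to 2445 CPM in GFP and 950.001 to 1093 in CRE libraries. Cnn1, calponin, was the lowest at -1.56 (adjusted p = 2.67e-06) and Myh11, smooth muscle myosin, the highest called at -0.85 (adjusted p = 0.000387). Acta2 and Tagln, in this list, are also markers of activated fibroblasts. These 2 genes made up most of the sum, at means of 1294 and 859 CPM in GFP and 507 and 450 in CRE cells. Myh11 had a mean of 7.81 CPM in GFP and 4.32 in CRE cells. Of 10 endothelial markers, 9 were lower, from Cd93 at -2.33 (adjusted p = 1.55e-07) to Cdh5, VE-cadherin, at -0.82 (adjusted p = 9.87e-06), and their sum was 480.4 to 535 CPM in GFP and 210.3 to 245 in CRE libraries. Of 6 tested pericyte markers, 3 were lower and 1 higher, with Rgs5 lowest at -1.19 and Cspg4 higher at 1.03, and sums of 979 to 1119 and 829 to 851 CPM. Pdgfrb made up most of the pericyte sums, at means of 973 CPM in GFP and 783 in CRE cells. The pericyte marker Higd1b was at 0 in every library. Macrophage markers were low, at 33.3 to 36.0 CPM in GFP and 20.6 to 24.5 in CRE libraries, with 2 of 5 tested lower (Adgre1 at -1.27 and Lyz2 at -0.69), close to the background of 25.7% at this list size. Cardiomyocyte markers were near 0, with Myh6 at 0 in every library and sums of 0.676 to 0.831 and 1.64 to 2.74 CPM, and the only one tested, Nppb, had 1 to 3 counts in GFP and 13 to 28 in CRE libraries. Nppb passed the filter only through CRE libraries, where it is high, so its call is no support. Of 4 tested epicardial markers, 3 were higher (the highest Krt19 at 1.79) and Wt1 was lower at -2.10, with sums of 7.38 to 8.12 and 7.71 to 10.6 CPM, but Krt19 and Upk1b passed the filter through the CRE libraries alone. Smooth muscle and endothelial markers thus moved in the same direction as the members, and their part in the result was not tested.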

How the data were processed

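RNA-seq was performed on 6 libraries, 3 of GFP and 3 of CRE cells, grouped by their titles. Trimmomatic, HISAT2 (against GRCm38) and HTSeq-count were used by the authors to trim, align and count the reads. Tool versions are not given in the sources used here, and the labels and the methods name different RNA and library kits. The authors deposited raw counts per gene, which are not normalized, and FPKM values per library from Cufflinks. Columns with their group means, fold change, p-value and FDR were not used.

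Members were matched by symbol. The members and the gene lists were chosen with earlier results of these data known. The fit used edgeR 4.0.16 in R 4.3.3 with filterByExpr (minimum count 10 and minimum total 15, leaving 12862 of 22063 genes), TMM scaling and quasi-likelihood tests. P-values of all tested genes were adjusted together after Benjamini and Hochberg. The procedure was tested on simulated data. SEs were derived from the fold change and the test's F value. The threshold was an adjusted p of 0.05. Ratios and shares were compared by exact permutation tests (scipy 1.17.1). As alternatives, RLE, library size alone, no filter beyond 1 count, DESeq2 1.42.0, limma-voom (limma 3.58.1), limma on log2(FPKM + 1), a replicate block and leaving out each library were tried.

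A count of 0 allows up to 3 counts, or 0.156 to 0.187 CPM, counting error only. Named beside the members are Tet3, all tested lysyl oxidases and latent TGF-β binding proteins, and in each other list the highest and lowest called gene. Markers at 0 in every library were named too. Thy1, Efemp1, Acta2, Tagln, Ctss, Upk1b, Col1a1, Col1a2 and Pdgfrb were named after their values were seen. Coordinates are from GENCODE M21 and promoter windows from RefSeq.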

Additional observations from a re-analysis of the deposited data

How the results depend on the processing

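All 10 members were called lower with RLE, no filter beyond 1 count, DESeq2, limma-voom and every library left out in turn, 9 with library size alone and 8 on log2(FPKM + 1), and none was called higher in any of these. Fbn2 was not called on log2(FPKM + 1), at -0.09 (adjusted p = 0.269), where its FPKM lies far below the added 1. The same scale and library size alone lost Fbln5 (adjusted p = 0.178 and 0.121). With 1 library left out, Fbn2 ran from -1.57 to -1.06 and kept its call (largest adjusted p = 0.0491).

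The genes of the assembly list called higher were 10 with library size alone in place of 6, and those called lower 23 in place of 27. Library size alone moved the median of all genes by 0.16 and log2(FPKM + 1) by 0.13 on the log2 scale, and 16.2% and 14.9% of tested genes were then lower. Adamts6 shrank from -0.47 to -0.31 and -0.28 on these scales and kept its call. Genes of low FPKM shrank by more than 1.5 times on log2(FPKM + 1) but kept their calls, among them Adamtsl4 (-0.76), Hmcn1 (-0.48), Mmrn1 (-0.24), Adgre1 (-0.63), Myh11 (-0.32), Wt1 (-0.90), Krt19 (0.83) and Nppb (1.123). On the same 2 scales signs reversed for Loxl1 (0.15 and 0.15), Ltbp1 (0.12 and 0.11) and Ltbp3 (0.0155 and 0.0673). With 1 library left out, Loxl1 ran from -0.0413 to 0.0106 and Ltbp1 from -0.0958 to 0.0193, with no call. The cause was not tested.

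Same-numbered libraries of the 2 groups correlated at 0.05, 0.18 and -0.02 in their deviations, so the number does not pair them. With the replicate block 10 members and 28 assembly genes were lower and 6 assembly genes higher. The depth limits Fbn2, at 9 to 29 counts.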

Other observations

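The deposited counts and FPKM of a gene together give an implied transcript length, as the count divided by the FPKM and by the library total. Counts and FPKM came from different tools (HTSeq-count and Cufflinks), so this need not be a length that either tool used. Of 12819 tested genes with such a length in every library, 14.4% had no overlap between the groups, in either direction. For Fbln1, which is known to be spliced into several forms, this length was 2.76, 2.77 and 2.77 kb in GFP and 2.86, 2.90 and 2.83 kb in CRE libraries. Mfap5 was also longer in CRE libraries, at 1.38 to 1.39 kb against 1.35 to 1.37 kb. The groups of Fbn1 and Fbln5 did not overlap either, with shorter values in CRE libraries (9.885 to 9.892 kb against 9.906 to 9.912 kb, and 2.600 to 2.607 kb against 2.613 to 2.627 kb). The groups of the other 6 members overlapped. Transcript forms were not measured here, and the differences were not tested.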
